A study of Mus musculus with 8 samples.

Results

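The clade A serpins described here are 10 secreted proteins made mainly by the liver, and their genes were chosen by symbol as 5 near-identical copies of α1-antitrypsin, *Serpina1a* to *Serpina1e*, and 5 relatives, *Serpina3k*, *Serpina3n*, *Serpina6*, *Serpina10* and *Serpina12*. All 10 were among the 19267 genes of the table and all passed the filter on low counts that left 13993 genes to be tested. RNA was sequenced from the livers of male C57BL/6 mice aged 9 weeks, in 4 groups of 2 libraries each. WT mice carried the Cre transgene alone. *Elf4*-/- mice, called knockouts below, lacked the transcription factor ELF4 in the intestinal epithelium, where Cre is driven by the villin promoter, so that their hepatocytes kept the gene and *Elf4* counts in liver (6 to 36 a library) do not check the genotype label. From 6 weeks of age both genotypes received a liquid diet for 21 days, which held either 5% (w/v) alcohol (WT-EtOH and *Elf4*-/--EtOH) or isocaloric maltose dextrin (WT-Control and *Elf4*-/--Control). The labels do not say whether the 2 libraries of a group came from separate animals, so p-values measure the spread between these libraries.

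Serpins are decoys. A protease cuts the exposed reactive centre loop of the inhibitor, and the inhibitor then changes shape and traps the enzyme. α1-antitrypsin protects tissue from neutrophil elastase. Humans have a single gene for it, whereas laboratory mice carry several copies whose loops differ, and with them the proteases they bind. Not all members of the clade inhibit proteases: *Serpina6* encodes corticosteroid-binding globulin, a hormone carrier. *Serpina10* encodes the protein Z-dependent inhibitor of coagulation factor Xa, *Serpina12* encodes vaspin, an inhibitor of kallikrein 7, and *Serpina3k* and *Serpina3n* are mouse relatives of human α1-antichymotrypsin.

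The loop is shown first because it is where the 5 copies differ most visibly, and because reads from it can be assigned to 1 copy. Each line gives the 66 coding bases around the reactive centre, 5′ to 3′ on the minus strand of chromosome 12 (GRCm38), at chr12:103853765-103853830 for *Serpina1a*, chr12:103728332-103728397 for *Serpina1b*, chr12:103895102-103895167 for *Serpina1c*, chr12:103763770-103763835 for *Serpina1d* and chr12:103947108-103947173 for *Serpina1e*. Capitals mark bases that differ from the most common base at that place among the 5 copies or, where bases were equally common, from the one of them that comes first in the alphabet.
Serpina1a: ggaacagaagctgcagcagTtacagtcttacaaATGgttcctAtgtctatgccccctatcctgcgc
Serpina1b: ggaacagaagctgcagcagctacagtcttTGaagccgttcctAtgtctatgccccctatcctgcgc
Serpina1c: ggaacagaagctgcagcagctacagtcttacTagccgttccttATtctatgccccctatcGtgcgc
Serpina1d: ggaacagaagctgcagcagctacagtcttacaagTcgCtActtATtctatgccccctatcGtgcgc
Serpina1e: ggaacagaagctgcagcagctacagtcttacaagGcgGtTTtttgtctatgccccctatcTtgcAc
Between any pair of copies 4 to 10 of these 66 bases differed, and *Serpina1e* differed from each of the others at 8 to 10. Over the whole coding sequence the copies were 96.3% to 98.5% identical, *Serpina3k* and *Serpina3n* 83%.

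Near-identical copies can share reads, so every window of 150 bases (the read length) in the annotated coding transcripts of each member was compared with the transcripts of all other genes. In *Serpina1e* 7.36% of distinct windows also occurred in another gene, *Serpina1b*, the lowest share of the 5 copies. The share was 11.9% for *Serpina1b*, 23.3% for *Serpina1d*, 35.1% for *Serpina1a* and 50.5% for *Serpina1c*, whose shared windows all lay in *Serpina1a*. Among the other 5 members only *Serpina3k* shared any, 0.262% with *Serpina3m*. How reads that fit several genes were counted, and whether strand was used, was not given in the sources used here, so levels of *Serpina1a* and *Serpina1c* are the least certain. In the annotation the *Serpina1b* model also spans *Serpina1d*, the *Serpina3k* model overlaps *Serpina3m*, and *Serpina1c* overlaps the antisense gene *B430119L08Rik*.

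Libraries held 6171051 to 9157362 counts, of which the 10 members took 0.992% to 1.66%. Hepatocyte markers were abundant in every library (*Alb* 167413 to 399598 counts). The *Elf4*-/--EtOH libraries were the least alike of the 4 pairs, with an SD of the log2 difference between replicates over genes of 0.68 against 0.35 to 0.50 in the other groups. One of them stood apart at the serpin cluster itself: the pseudogene *Serpina4-ps1*, named after its values were seen, had 9 counts in *Elf4*-/--EtOH replicate 1 and 1786 to 4750 in the other 7 libraries.

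In control livers *Serpina1e* had the highest mean of the 10 members in deposited counts per length of exon, and under alcohol it was among the lower ones. Its first place over *Serpina1c* depends on how shared reads were counted, which was not given. Of the windows of *Serpina1c* 50.5% were shared, against 7.36% of those of *Serpina1e*, so dropped reads would lower *Serpina1c* more. Levels between genes are given in CPM (counts scaled to library size) per kilobase of exon. In WT-Control the order of group means was *Serpina1e* 2490 ± 43.5, *Serpina1c* 1864 ± 587, *Serpina3k* 1586 ± 522, *Serpina1a* 1193 ± 182, *Serpina1b* 920 ± 127, *Serpina1d* 553 ± 144, *Serpina6* 113 ± 14.04, *Serpina3n* 90.4 ± 21.9, *Serpina10* 37.3 ± 10.99 and *Serpina12* 17.7 ± 5.83 CPM per kilobase (SD, n = 2). Of these neighbours, *Serpina1c* and *Serpina3k*, *Serpina3k* and *Serpina1a*, and *Serpina6* and *Serpina3n* had overlapping libraries. In WT-EtOH *Serpina1e* stood seventh of 10 at 58.0 ± 19.03 CPM per kilobase (SD, n = 2), overlapping *Serpina3n* at 55.9 ± 25.7, and *Serpina12* stayed last at 0.617 ± 0.533. The knockout livers had *Serpina1e* at 2313 ± 711 CPM per kilobase under the control diet, first of 10 though overlapping *Serpina3k* and *Serpina1c*. Under alcohol it was at 102 ± 116, again seventh of 10 by group mean. There its libraries (20.1 and 184) overlapped those of *Serpina6* (134 and 222) and *Serpina3n* (87.1 and 40.7).

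Among the antitrypsin copies, *Serpina1e* fell under alcohol in both genotypes. The counts of *Serpina1e* (chr12:103946931-103958975, minus strand) were 21859 and 21611 on the control diet against 914 and 707 on alcohol in WT mice. In CPM these were 4076 and 3976 against 116 and 72.05. All control libraries were high and all alcohol libraries low, with no overlap, and the transcript fell 42.9-fold (log2 fold change −5.42 ± 0.87 SE, edgeR adjusted p = 0.00387). The knockouts had 28563 and 30519 counts under the control diet and 204 and 2242 under alcohol, or 2928 and 4553 against 32.5 and 297 CPM. The alcohol replicates were far apart but both lay below both controls, and the transcript fell 22.6-fold (log2 fold change −4.50 ± 0.84 SE, edgeR adjusted p = 0.0276). That call in *Elf4*-/- mice was lost in 5 of 15 alternatives: the adjusted p was 0.119 with only the 4 *Elf4*-/- libraries in the fit, 0.0505 and 0.0507 without WT-EtOH replicate 1 or 2, and 0.117 and 0.182 without *Elf4*-/--Control replicate 1 or 2, while the log2 fold change with a library left out stayed between −6.86 and −3.65. The call in WT mice held in all 15.

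Vaspin mRNA was the other member that fell, from a much lower level. *Serpina12* (chr12:104028769-104044443, minus strand) had 269 and 438 counts on the control diet against 7 and 36 on alcohol in WT mice, or 50.2 and 80.6 against 0.885 and 3.67 CPM. The knockouts had 576 and 569 counts on the control diet against 8 and 40 on alcohol, or 59.0 and 84.9 against 1.28 and 5.31 CPM. Control and alcohol libraries did not overlap in either genotype, and in each alcohol group replicate 1 had the fewer counts. *Serpina12* fell 27.5-fold in WT mice (log2 fold change −4.78 ± 0.60 SE, edgeR adjusted p = 0.00186) and 21.1-fold in *Elf4*-/- mice (−4.40 ± 0.59 SE, edgeR adjusted p = 0.00972). The second call was lost in 1 of 15 alternatives, without *Elf4*-/--Control replicate 2 (adjusted p = 0.124), and the first in none.

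**Figure D1:**
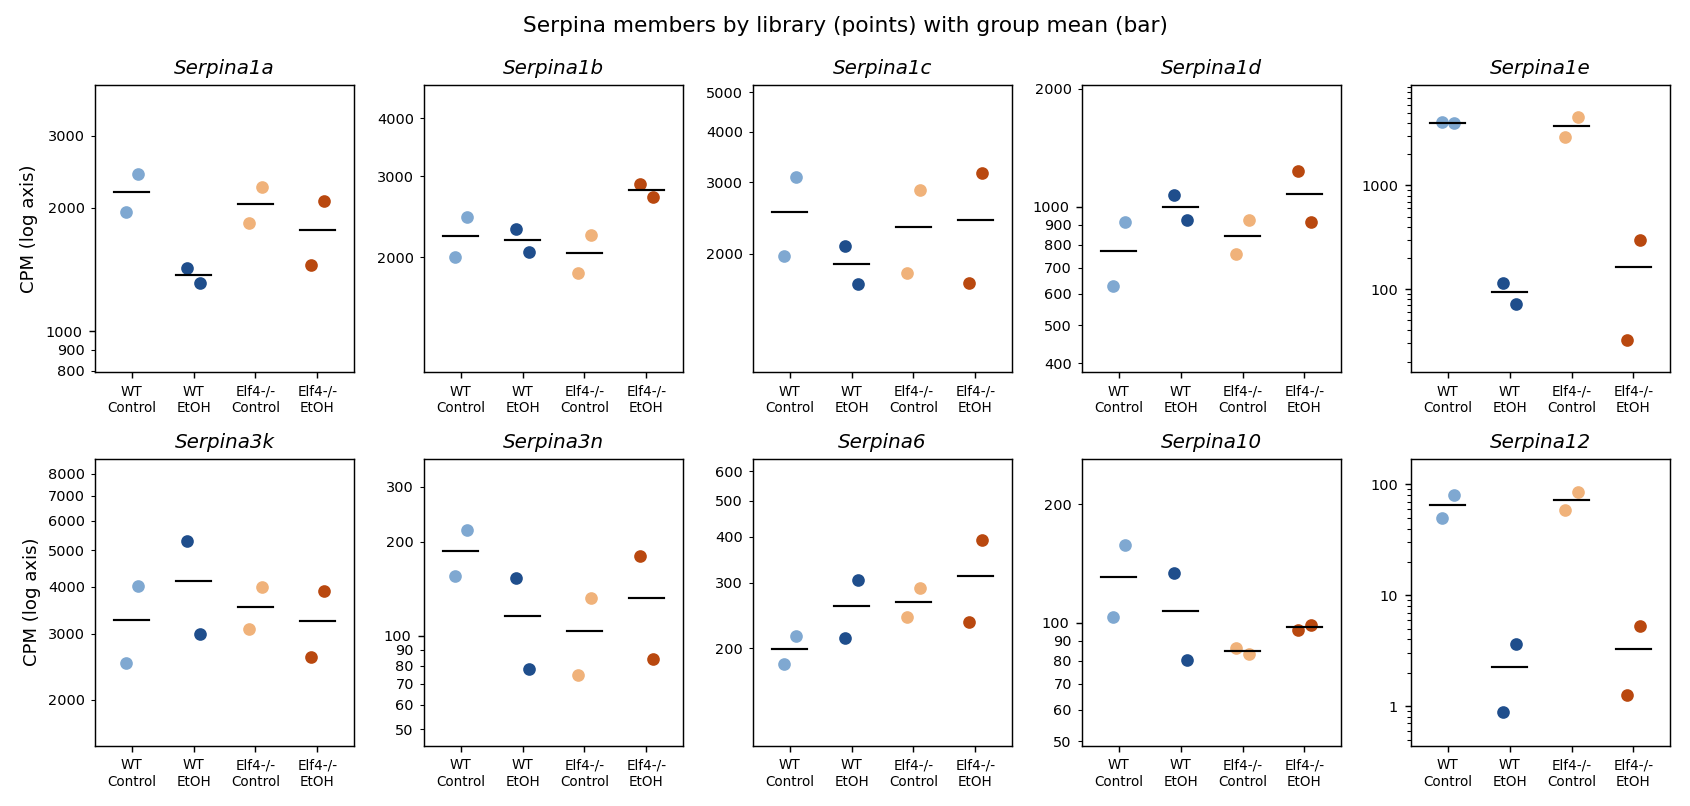
Level of each of the 10 members in CPM on a log axis (range differs by panel) in the 4 groups named below the axis, with 1 point for each of the 2 libraries of a group and a bar at the group mean. *Serpina1e* and *Serpina12* are low in all 4 alcohol libraries, whereas the other members span less than 1 decade in every panel.

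These were the only members past the threshold in the edgeR fit. In WT mice 0 members rose and 2 fell, against 10.8% of all tested genes called higher and 10.8% called lower. Among *Elf4*-/- mice 0 members rose and 2 fell, against 1.71% of all tested genes higher and 1.18% lower. At an unadjusted p under 0.05, 3 members were lower in WT mice and 2 in *Elf4*-/- mice, against 18.3% and 10.3% of all tested genes, and none was higher, against 18% and 10.9%. The median log2 fold change of the 10 members was −0.36 in WT mice and 0.13 in *Elf4*-/- mice, while that of all tested genes was 0.01 in both.

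The other 4 antitrypsin copies did not pass the threshold in WT mice. *Serpina1a* had 1950 and 2421 CPM on the control diet of WT mice against 1425 and 1310 on alcohol. Its alcohol libraries lay below both controls, but the log2 fold change of −0.68 ± 0.29 SE did not pass (edgeR adjusted p = 0.117, 95% interval −1.31 to −0.04). It passed under DESeq2 (adjusted p = 0.044) and without *Elf4*-/--EtOH replicate 2 (adjusted p = 0.0499). *Serpina1b* had 2005 and 2440 CPM on the control diet against 2302 and 2049 on alcohol, *Serpina1c* 1972 and 3102 against 2092 and 1689, and *Serpina1d* 628 and 912 against 1074 and 928. The *Serpina1b* and *Serpina1c* libraries overlapped between diets, and both *Serpina1d* alcohol libraries lay above both controls. Their log2 fold changes in WT mice were −0.03 (95% interval −0.62 to 0.56), −0.42 (−1.29 to 0.44) and 0.38 (−0.25 to 1.01), with edgeR adjusted p from 0.363 to 0.946. The value for *Serpina1d* passed when libraries were scaled by their totals alone (log2 fold change 0.80, adjusted p = 0.0487), a scaling under which the median of all genes moved from 0.01 to 0.44.

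In *Elf4*-/- mice the same 4 copies also missed the threshold. *Serpina1b* had 1844 and 2236 CPM on the control diet against 2889 and 2708 on alcohol, with no overlap, and a log2 fold change of 0.46 (95% interval −0.14 to 1.05, edgeR adjusted p = 0.352). *Serpina1a* (1835 and 2247 against 1449 and 2077 CPM), *Serpina1c* (1792 and 2877 against 1691 and 3161 CPM) and *Serpina1d* (758 and 924 against 1235 and 917 CPM) overlapped between diets. Their log2 fold changes were −0.21 (95% interval −0.84 to 0.42), 0.06 (−0.81 to 0.92) and 0.35 (−0.27 to 0.98). None of the 8 intervals of these copies reached the interval of *Serpina1e*, which ran from −7.37 to −3.48 in WT and from −6.36 to −2.64 in *Elf4*-/- mice.

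Added together, the copies differed much less between diets than *Serpina1e* alone. Their sum is the same however reads were divided between copies, though not if reads shared by copies were dropped, and it is given without a test. It was 10631 and 12851 CPM on the control diet against 7008 and 6048 on alcohol in WT mice, a log2 fold change of −0.85 ± 0.33 SE. For *Elf4*-/- mice it was 9158 and 12837 CPM under the control diet and 7297 and 9161 CPM under alcohol, −0.42 ± 0.33 SE. The libraries of the 2 diets did not overlap in WT mice and overlapped in *Elf4*-/- mice. Scaled by library totals alone the WT value was −0.42, and with 1 library left out the *Elf4*-/- value ran from −0.65 to −0.15, the latter without *Elf4*-/--Control replicate 2. Between the group means of WT mice the sum changed by −5213 CPM, of which *Serpina1e* made up 75.4%. The change in *Elf4*-/- mice was −2769 CPM, with −3575 CPM from *Serpina1e* and 806 CPM from the other 4 copies together. Without *Serpina1e* the sum was 7715 ± 1641 CPM on the control diet against 6434 ± 648 on alcohol in WT mice, and 7257 ± 1452 against 8064 ± 1130 in the knockouts (SD, n = 2).

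**Figure D2:**
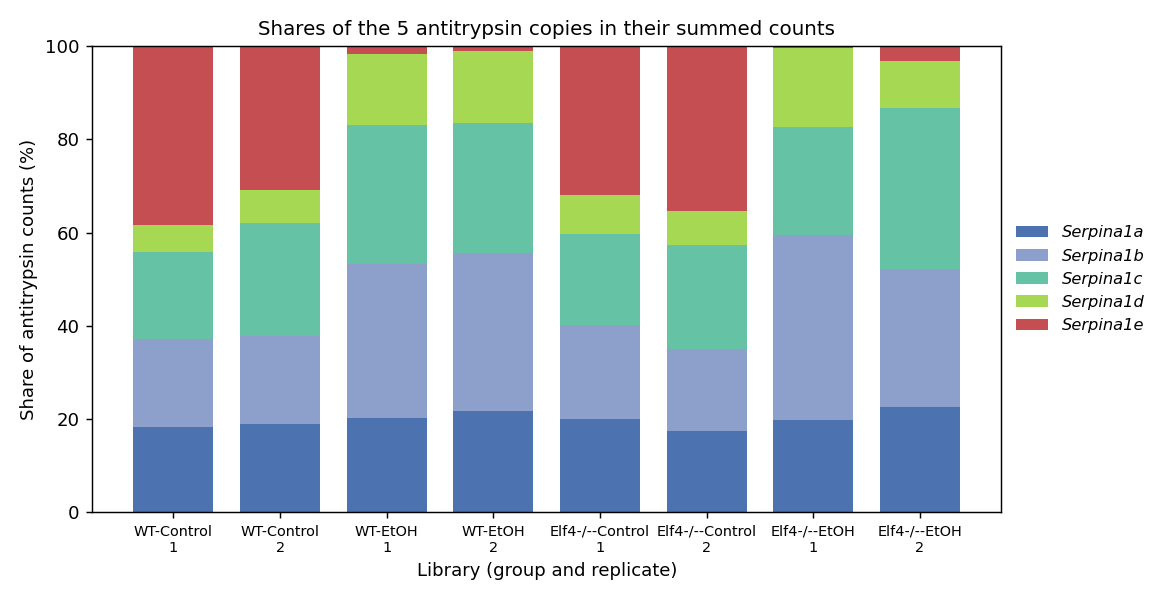
Share of each of the 5 antitrypsin copies in their summed counts (%, from 0 to 100) in each of the 8 libraries. *Serpina1e* holds 30.9% to 38.3% in the control libraries and 0.446% to 3.25% in the alcohol libraries.

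The make-up of the antitrypsin counts differed between diets. *Serpina1e* held 38.3% and 30.9% of the copies' counts on the control diet against 1.65% and 1.19% on alcohol in WT mice. The knockout libraries had 32.0% and 35.5% against 0.446% and 3.25%. Under alcohol *Serpina1b* was the most counted copy in 3 of 4 libraries, at 32.9% and 33.9% in WT-EtOH and 39.6% in *Elf4*-/--EtOH replicate 1, and *Serpina1c* in the other, at 34.5%. These shares add up to 100%, so a lower share of one copy raises the others. They are not scaled to exon length, which is 2.415 kb for *Serpina1b* and 1.361 kb for *Serpina1c*. Per kilobase *Serpina1c* lay above *Serpina1b* in every alcohol library. The values were 1537 and 1241 against 953 and 849 CPM per kilobase in WT-EtOH, and 1243 and 2323 against 1196 and 1121 in *Elf4*-/--EtOH.

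**Figure D3:**
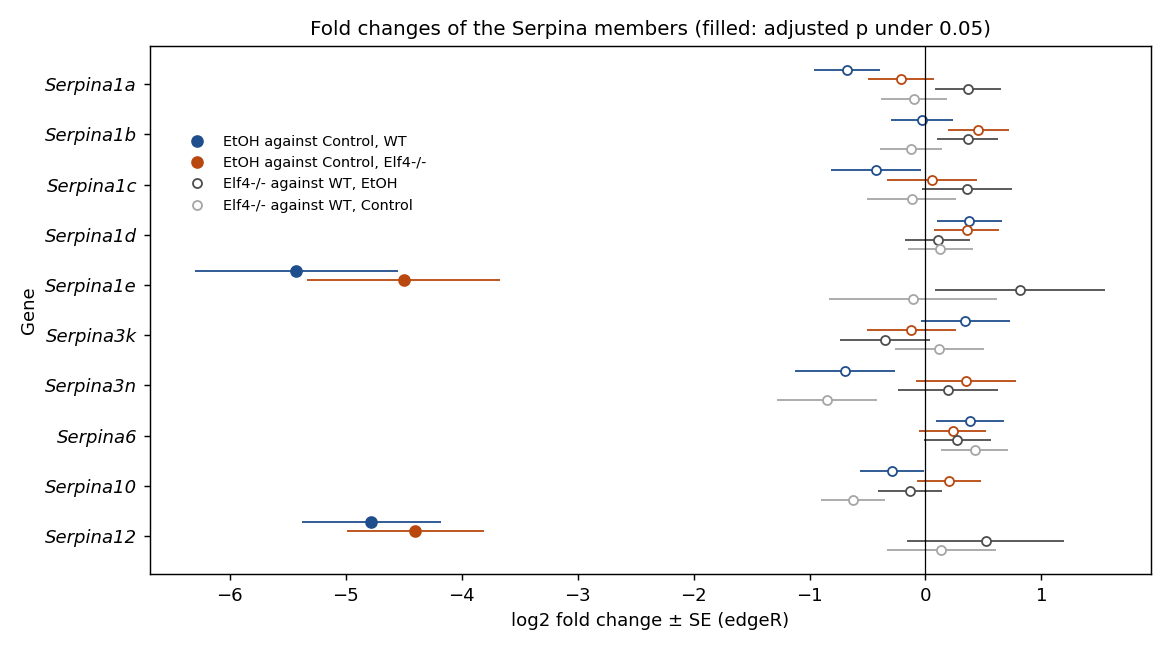
Log2 fold change (x axis) with SE bars of each member (y axis) for alcohol against control diet in WT and in *Elf4*-/- mice and for *Elf4*-/- against WT under each diet, from the edgeR fit on all 8 libraries. Filled points have an adjusted p under 0.05: only *Serpina1e* and *Serpina12* have them, at −5.42 and −4.78 in WT and −4.50 and −4.40 in *Elf4*-/- mice.

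The antichymotrypsin relatives showed no call. *Serpina3k*, also known as contrapsin, had 2504 and 4022 CPM on the control diet against 5285 and 2992 on alcohol in WT mice, and 3084 and 4000 against 2606 and 3891 in the knockouts. All groups overlapped, with log2 fold changes of 0.34 (95% interval −0.51 to 1.199) in WT and −0.12 (−0.98 to 0.73) in *Elf4*-/- mice. *Serpina3n*, an inhibitor of granzyme B that is induced in the acute phase, had 155 and 218 CPM on the control diet against 153 and 77.9 on alcohol in WT mice, and 74.8 and 132 against 180 and 84.0 in the knockouts. Its alcohol replicates lay further apart than the diet effect in each genotype, and its log2 fold changes were −0.69 (95% interval −1.65 to 0.26) in WT and 0.35 (−0.61 to 1.31) in *Elf4*-/- mice.

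The hormone carrier and the coagulation inhibitor were likewise not called. *Serpina6* had 181 and 216 CPM on the control diet against 213 and 305 on alcohol in WT mice, and 243 and 290 against 236 and 391 in the knockouts. The diets overlapped in both genotypes, with log2 fold changes of 0.38 (95% interval −0.26 to 1.03) in WT and 0.23 (−0.41 to 0.88) in *Elf4*-/- mice. *Serpina10* had 103 and 158 CPM on the control diet against 133 and 80.5 on alcohol in WT mice, and 86.2 and 83.1 against 95.8 and 98.7 in the knockouts. Its log2 fold changes were −0.29 (95% interval −0.90 to 0.33) in WT and 0.20 (−0.42 to 0.82) in *Elf4*-/- mice, where both alcohol libraries lay just above both controls.

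Genotype made no call in any member. Between *Elf4*-/- and WT mice 0 of 10 members passed under alcohol and 0 under the control diet, against 0.143% and 0.0143% of all tested genes. DESeq2 also called 0 members in each, against 1.31% and 0.668% of the genes it tested. At an unadjusted p under 0.05 the counts were 0 and 1, against 10.5% and 7.31% of all tested genes, the one being *Serpina10*, lower in *Elf4*-/- mice under the control diet by 0.62 on the log2 scale (edgeR adjusted p = 0.679, 95% interval −1.24 to −0.01). Under alcohol the values ran from −0.35 for *Serpina3k* to 0.82 for *Serpina1e*, whose 95% interval of −0.81 to 2.45 was wide, and *Serpina12* had 0.52 (−0.99 to 2.02). Under the control diet they ran from −0.85 for *Serpina3n* to 0.43 for *Serpina6*, with −0.11 for *Serpina1e* (−1.71 to 1.502) and 0.14 for *Serpina12* (−0.91 to 1.18). The summed copies had 0.33 ± 0.33 SE under alcohol and −0.09 ± 0.33 SE under the control diet.

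The test of whether the diet effect differed between genotypes called 0 members and 0% of all tested genes. DESeq2 called 0 members too, against 1.26% of the genes it tested. At an unadjusted p under 0.05 there were 0 members, against 10.1% of all tested genes. The difference of log2 fold changes, *Elf4*-/- minus WT, was 0.92 for *Serpina1e* (95% interval −1.36 to 3.21) and 0.38 for *Serpina12* (−1.44 to 2.21). It ran from −0.47 for *Serpina3k* to 1.04 for *Serpina3n* (−0.31 to 2.40), and was 0.43 ± 0.46 SE for the summed copies. With 2 libraries a group these intervals span several fold.

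*Serpina1e* and *Serpina12* lie close to each other. Of the 21 clade A genes counted, 20 sit in a cluster of 800 kb on chromosome 12 (GRCm38, chr12:103614786-104414329), and 16 of those were tested. The starts of *Serpina1e* and *Serpina12* are 85.5 kb apart, with *Serpina11* and *Serpina9* between them. *Serpina11*, a secreted serpin of unknown target, had 482 and 425 counts on the control diet against 275 and 347 on alcohol in WT mice, and 480 and 399 against 62 and 243 in the knockouts. It fell in WT mice (log2 fold change −1.26, edgeR adjusted p = 0.0471) and had −1.35 in *Elf4*-/- mice (adjusted p = 0.0963). *Serpina9*, named with *Serpina3f* after its values were seen, had 32 and 31 counts on the control diet against 4 and 3 on alcohol in WT mice, and fell (log2 fold change −3.82, adjusted p = 0.0243). The knockouts had 21 and 22 counts on the control diet and 1 and 32 on alcohol, a log2 fold change of −0.24 (adjusted p = 0.900).

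**Figure D4:**
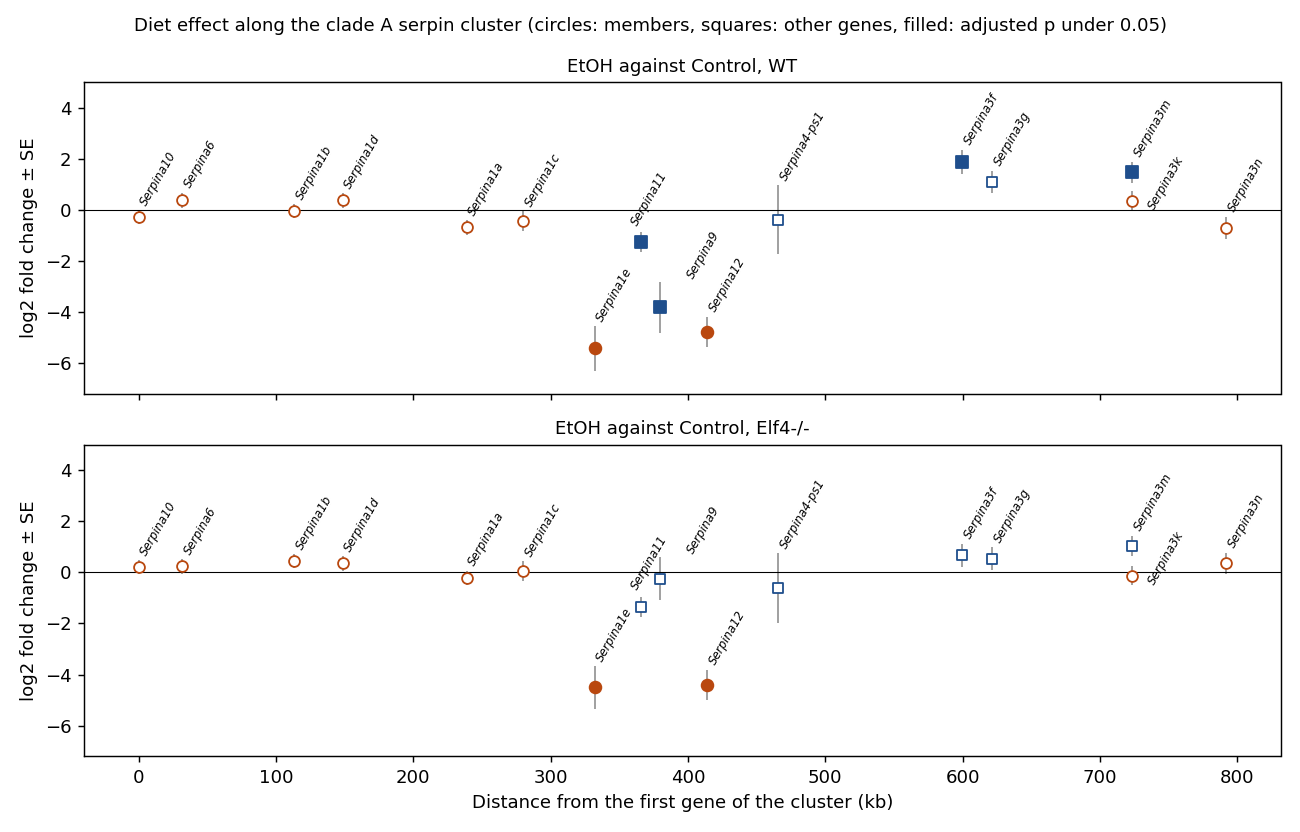
Log2 fold change with SE for alcohol against control diet of the 16 tested clade A genes of the cluster, by distance of each gene from the first gene in kb, in WT (top) and *Elf4*-/- mice (bottom). Circles are the members and squares other genes, and filled symbols have an edgeR adjusted p under 0.05. In the WT panel the 4 genes from *Serpina1e* to *Serpina12* are all below 0 and filled.

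Further along the cluster 2 genes were called in the other direction in WT mice, while the members there, *Serpina3k* at 0.34 and *Serpina3n* at −0.69 at the far end, were not called. *Serpina3m* had 192 and 201 counts on the control diet against 801 and 998 on alcohol, and rose (log2 fold change 1.48, edgeR adjusted p = 0.0305). *Serpina3f* rose as well (1.87, adjusted p = 0.0232), and *Serpina3g* had 1.11 (adjusted p = 0.0970). The 3 had in the knockouts 1.04, 0.66 and 0.54, none past the threshold. Of the 11 clade A genes outside the 10 members, 7 were tested. In WT mice 2 were higher and 2 lower, against 10.8% of all tested genes higher and 10.8% lower. None was called in the other comparisons.

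The letters just upstream of the copies are shown because only 1 of the copies fell. RefSeq promoter windows (GRCm38.p6, 250 bases before to 50 after each annotated start) were held for 7 members, *Serpina3n*, *Serpina12* and the 5 copies, and the copies share a stretch of 188 to 190 bases there. It is given 5′ to 3′ on the minus strand for *Serpina1e* (chr12:103956960-103957147), for *Serpina1b* (chr12:103738200-103738389), the copy most like it in this stretch, and for *Serpina1c* (chr12:103904962-103905149), the one with the most differences. Capitals mark bases that differ from the most common base among the 5 copies or that most copies lack.
Serpina1e: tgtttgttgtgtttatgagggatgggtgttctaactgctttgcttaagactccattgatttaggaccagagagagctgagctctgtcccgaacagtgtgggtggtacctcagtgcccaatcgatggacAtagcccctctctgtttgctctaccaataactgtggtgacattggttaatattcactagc
Serpina1b: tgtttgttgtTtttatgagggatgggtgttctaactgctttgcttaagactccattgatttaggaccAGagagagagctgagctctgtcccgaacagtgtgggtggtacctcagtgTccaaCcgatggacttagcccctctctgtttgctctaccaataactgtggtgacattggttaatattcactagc
Serpina1c: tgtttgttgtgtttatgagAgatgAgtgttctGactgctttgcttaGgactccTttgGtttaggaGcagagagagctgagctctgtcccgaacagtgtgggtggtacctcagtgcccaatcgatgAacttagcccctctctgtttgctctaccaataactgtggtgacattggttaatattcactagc
In this stretch *Serpina1e* had 1 such base, *Serpina1b* 5 and *Serpina1c* 8. Identity of *Serpina1e* to the other copies was 95.2% to 97.9%. Each stretch lies upstream of the start that RefSeq annotates, by 62 bases in *Serpina1e* and by 0 to 11 in the others. The gene spans given with the values are those of GENCODE, whose models of *Serpina1e* and *Serpina1b* begin further upstream, so that their stretches lie inside those spans.

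Motifs were counted on both strands of these windows. Of the 7 windows 5 belong to the copies, whose shared stretches are 92.6% to 97.9% identical. A motif they share is thus counted up to 5 times, so the 7 windows are not independent. The shares of all promoters are given for scale, and enrichment was not tested. TTGCNNAA, a C/EBP site, was in 5 of the 7 (*Serpina1a*, *Serpina1b*, *Serpina1d*, *Serpina1e* and *Serpina12*) against 10.8% of 32851 promoters. AGAACA, a glucocorticoid receptor partial site, was in 6 of the 7, all but *Serpina12*, against 19% of all promoters. TTCNNNGAA, a STAT site, and TATAAA, the TATA box, were in 0 of the 7, against 8.3% and 13.6% of all promoters. No pair of these motifs has letters that contain the other, though they may overlap where they meet. None of these motifs was in the windows of *Serpina1e* and *Serpina12* and absent from all other windows searched.

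Proteases and partners of the members were mostly lower under alcohol in WT mice. Of 7 tested, 0 rose and 4 fell, against 10.8% of all tested genes called higher and 10.8% called lower. Coagulation factor XI (*F11*) and plasma kallikrein (*Klkb1*), both proteases that serpins control, fell (log2 fold change −3.86 and −2.02, edgeR adjusted p = 0.000802 and 0.00383). *Proz*, protein Z, the cofactor of the *Serpina10* product, fell too (−1.34, adjusted p = 0.00964). The fourth, the neutrophil protease *Prtn3*, had few counts (−3.35, adjusted p = 0.00820) and was named after its values were seen. Among the 7, 1 fell in the knockouts, against 1.18% of all tested genes, namely *F11* (−1.85, adjusted p = 0.0274). The mRNA of neutrophil elastase, *Elane*, had 0 to 3 counts a library.

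Among genes that fold and export secreted serpins, 17 were tested. In WT mice 2 rose and 3 fell, against 10.8% of all tested genes higher and 10.8% lower. In *Elf4*-/- mice none was called, against 1.71% and 1.18%. Among the chaperones that hold misfolded antitrypsin in the endoplasmic reticulum, calreticulin (*Calr*) fell (log2 fold change −1.36, edgeR adjusted p = 0.00460) and calnexin (*Canx*) rose (1.19, adjusted p = 0.00363). *Mcfd2*, part of a cargo receptor for export, rose (0.79, adjusted p = 0.0194). *Lman1*, also of this list and named after its values were seen, had −0.62 and did not pass (adjusted p = 0.0609). The other 2 that fell, named after their values were seen, were *Uggt1*, which senses misfolded glycoproteins, and the disulfide isomerase *Pdia4* (−0.69 and −0.65, adjusted p = 0.0406 and 0.0485).

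Of 11 genes of glucocorticoid binding and response, chosen for the ligand of the *Serpina6* product, *Sgk1*, a kinase, rose (log2 fold change 1.58, edgeR adjusted p = 0.0380) and *Pck1*, an enzyme of gluconeogenesis, fell (−1.74, adjusted p = 0.0335) in WT mice. *Tat*, a tyrosine-degrading enzyme, had −1.59 (adjusted p = 0.113). The list had 1 gene higher and 1 lower in WT mice, against 10.8% of all tested genes higher and 10.8% lower. None was called in *Elf4*-/- mice, against 1.71% and 1.18%.

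The acute-phase list stands for the response that induces *Serpina3n*. Its 22 genes included receptors and signalling genes (*Il6ra*, *Il1r1*, *Osmr*, *Stat3* and *Socs3*) beside secreted proteins. Of the 22, 0 rose and 3 fell in WT mice, against 10.8% of all tested genes higher and 10.8% lower. Those that fell, named after their values were seen, were *Saa4*, *Apcs* and *Cp* (log2 fold change −1.33, −1.27 and −1.15, edgeR adjusted p = 0.0469, 0.0424 and 0.0277). The largest values were those of *Saa2* (log2 fold change −3.04, edgeR adjusted p = 0.0543), *Saa1* (−1.84, adjusted p = 0.171) and *Lcn2* (−1.74, adjusted p = 0.242), none past the threshold, and *Saa1* and *Saa2* are near-identical copies too. The knockouts had 0 calls of 22, against 1.71% of all tested genes higher and 1.18% lower. Their values were above 0 for the same 3 genes, 1.78 for *Saa2*, 1.07 for *Saa1* and 4.37 for *Lcn2* (edgeR adjusted p = 0.332, 0.536 and 0.0728). The test of whether the diet effect differed between genotypes did not pass for them (adjusted p = 0.314, 0.488 and 0.273). Between genotypes, *Elf4*-/- minus WT, the 3 had −4.85, −3.43 and −3.71 under the control diet (edgeR adjusted p = 0.282, 0.406 and 0.477). Under alcohol they had −0.03, −0.53 and 2.39 (edgeR adjusted p = 0.996, 0.891 and 0.451). Under the control diet 2 of the 22 genes had genotype values above 0 (median −0.97).

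Markers of cell types moved with diet in WT mice, where 10.8% of all tested genes were called higher and 10.8% lower. In *Elf4*-/- mice these shares were 1.71% and 1.18%. Of the hepatocyte markers 0 rose and 1 of 7 fell, *Apoa1* (log2 fold change −2.34, edgeR adjusted p = 0.00592), while *Cps1* and *Apoc3* had −1.25 and −0.66 (adjusted p = 0.100 and 0.117). Their summed level was 57247 and 80575 CPM on the control diet against 43045 and 34932 on alcohol in WT mice, and 68686 and 75793 against 45755 and 56515 in the knockouts, without overlap between diets. Markers of Kupffer cells, the resident macrophages, rose in 6 of 6 in WT mice, led by *Marco*, *Vsig4* and *Cd5l* (4.65, 2.14 and 2.08), with sums of 151 and 199 CPM under the control diet and 505 and 558 CPM under alcohol. Only 1 of 6 rose in the knockouts, *Marco*, and under alcohol *Cd5l* and *Clec4f* were lower than in WT mice (−1.69 and −1.32, adjusted p = 0.0268 and 0.0418). Of the sinusoidal endothelial markers 5 of 6 rose in WT mice (among them *Clec4g* 2.60, *Fcgr2b* 1.82 and *Pecam1* 1.77) and 0 in *Elf4*-/- mice, and of the stellate cell markers 4 of 6 (among them *Dcn* 3.06, *Lrat* 2.68 and *Rgs5* 1.89) and 0.

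No other marker list had more than 2 calls. Of neutrophil markers 0 of 3 tested changed, with sums of 1.02 to 13.2 CPM. Bile duct markers had 0 calls of 5 (*Spp1* −0.94), intestinal epithelium 0 of 3 (*Lgals4* 0.44, *Fabp2* −0.15) and pancreatic acinar cells 0 of 1. Among red blood cell genes 2 of 5 fell in WT mice (*Alas2* −1.81 and, named after its value was seen, *Hba-a2* −1.53), with *Hba-a1* at −0.94 and *Hbb-bs* at 0.56 (adjusted p = 0.0991 and 0.510), and the 1 tested adipose gene, *Fabp4*, rose (2.34, adjusted p = 0.0102). The hepatocyte sums were lower by far less than *Serpina1e* and *Serpina12*, and their part in those falls was not tested. In bulk tissue, fewer cells of a type and less RNA per cell cannot be told apart.

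The genes whose log2 CPM followed each member most closely over the 8 libraries are given as a description, from 9383 genes averaging 50 counts or more. The points share their libraries and the diet groups, and the most negative correlations lay about as far from 0, from −0.907 to −0.984. For the summed copies these were *Cdk6* and *Haao* (Pearson r = 0.986 and 0.984), and for *Serpina12* *Iffo2* and *Cpsf7* (0.990 and 0.989). For *Serpina3n* they were *Arhgef3* and the acute-phase gene *Hp* (0.961 and 0.939), and for *Serpina10* *Tmed9* and *Pdia6* (0.941 and 0.936). *Serpina3k* was nearest to *Ppp4c* and *Plcxd2* (0.952 and 0.930) and *Serpina6* to *Umad1* and *Usf3* (0.936 and 0.935). Between the 2 members that fell, *Serpina1e* and *Serpina12*, r was 0.962.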

How the data were processed

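Gene counts were deposited by the authors, who aligned paired-end 150-base liver reads to mm10 with HISAT2, converted them with SAMtools and counted them per gene with HTSeq (tools and build per the labels and the study's methods). Versions, gene annotation, strand setting and the handling of reads that fit several genes were not given in the sources used here. The counts were read as deposited for 8 libraries in 4 groups, and 968 blank lines were dropped. Symbols were matched to GENCODE M21 (18774 of 19267 genes, 97.4%) for positions and exon lengths.

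The test was edgeR 4.0.16 (TMM, filterByExpr, quasi-likelihood, 13993 genes, common biological variation 22.7%) with 1 factor of 4 groups and 5 contrasts. P-values were adjusted over all tested genes by Benjamini-Hochberg, with a threshold of 0.05, and the fit was tested on simulated data. DESeq2 1.42.0 was an alternative. Coding sequences were aligned with MAFFT 7.526. Levels are CPM from TMM-scaled libraries.

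The members and gene lists were chosen with earlier results of these data known. A gene list and a motif are not reported here. All members are named. From each other list the 3 genes with the largest change by diet in WT mice and a mean of at least 50 counts are named, with any listed gene called between genotypes. For 6 patterns (the summed copies and each of the other 5 members) the 2 most alike genes outside the clade are named. Genes of other clades and the growth hormone pathway are in the closing section.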

Additional observations from a re-analysis of the deposited data

How the results depend on the processing

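The number of members called, every member's diet effects, the genotype and interaction values given for single members and the summed copies were recomputed under 15 alternatives (14 for the interaction): DESeq2, its size factors, library totals alone, 2 other filters, only the 4 libraries compared, a replicate block and 8 left-out libraries. The summed copies had no DESeq2 value, and the other gene lists were not recomputed. In WT mice *Serpina1e* and *Serpina12* fell in all 15. In *Elf4*-/- mice the number of members called was 1 with only the 4 libraries in the fit (*Serpina12*) and 0 to 2 with a library left out, with 0 without *Elf4*-/--Control replicate 2 and 1 without *Elf4*-/--Control replicate 1, WT-EtOH replicate 1 or WT-EtOH replicate 2. The cause was not tested. All genes called higher or lower in *Elf4*-/- mice were 404 in the fit on all libraries, 811 by DESeq2 and 40 with only the 4 libraries, and ran from 9 without *Elf4*-/--Control replicate 2 to 1683 without *Elf4*-/--EtOH replicate 2, with 20 without *Elf4*-/--Control replicate 1. In WT mice they were 3025, and from 626 without WT-EtOH replicate 2 to 4023 without *Elf4*-/--EtOH replicate 2. Between genotypes they were 20 under alcohol and 2 under the control diet, and 180 and 79 by DESeq2, which called 111 for the interaction where edgeR called 0. Without *Elf4*-/--EtOH replicate 1 or 2 the edgeR counts were 154 and 366 under alcohol, 52 and 53 under the control diet and 62 and 139 for the interaction. With the replicate block 2 members were still called by diet in WT mice and 2 in *Elf4*-/- mice, 0 in the other contrasts, and all genes called in *Elf4*-/- mice were 240. Samples share only a number: deviations of same-numbered libraries correlated by −0.109, −0.0235, 0.0243 and 0.0594 in the 4 contrasts of pairs.

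Scaling by library totals alone raised the median of all genes by diet in WT mice to 0.44, where 3422 genes were called higher and 634 lower against 1518 and 1507 with TMM. It set the summed copies at −0.42 by diet in WT mice and at −0.011 in the interaction, and turned *Serpina1b* to 0.40 and *Serpina10* to 0.13 by diet in WT mice, *Serpina1e* to 0.11 between genotypes under the control diet and *Serpina12* to −0.056 in the interaction. Fitted apart, the copies ran from −5.42 to 0.38 by diet in WT mice, from −4.50 to 0.46 in *Elf4*-/- mice, up to 0.82 between genotypes under alcohol and from −0.023 to 0.92 in the interaction.

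Values of single members not past the threshold, and 1 value of the summed copies, changed sign with 1 library left out as follows. By diet in WT mice *Serpina1b* ran from −0.17 to 0.12, *Serpina3k* from −0.12 to 0.73 and *Serpina10* from −0.70 to 0.050. By diet in *Elf4*-/- mice *Serpina1a* ran from −0.51 to 0.025, *Serpina1c* from −0.48 to 0.44, *Serpina3k* from −0.46 to 0.14, *Serpina3n* from −0.30 to 0.82 and *Serpina6* from −0.20 to 0.55. Under alcohol the genotype value of *Serpina1e* ran from −1.53 to 1.67, *Serpina3k* from −0.70 to 0.11 and *Serpina12* from −0.90 to 1.91. Under the control diet *Serpina1e* ran from −0.46 to 0.18 and *Serpina12* from −0.16 to 0.53. In the interaction *Serpina1e* ran from −1.43 to 1.77 and *Serpina12* from −1.04 to 1.77. The summed copies, given without a test, ran from −0.35 to 0.14 between genotypes under the control diet.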

Other observations

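Of 12 serpins of other clades tested, 1 rose and 2 fell in WT mice under alcohol, against 10.8% of all tested genes higher and 10.8% lower. In *Elf4*-/- mice 1 rose and 0 fell, against 1.71% and 1.18%. *Serpinb6a*, an intracellular serpin, rose in WT mice (log2 fold change 2.23, edgeR adjusted p = 0.00551) and *Serpinf2*, α2-antiplasmin, fell (−1.61, adjusted p = 0.00578), as did, named after its value was seen, *Serpind1*, heparin cofactor II (−0.94, adjusted p = 0.0249), while *Serpinh1*, a collagen chaperone, had 1.34 (adjusted p = 0.0882). In *Elf4*-/- mice *Serpinb6a*, *Serpinf2* and *Serpinh1* had 0.78, −0.25 and 1.23, none past the threshold. The one that rose there was *Serpinb1a* (3.16, adjusted p = 0.0492, with 10.6 counts a library on average), also named after its value was seen.

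Growth hormone signalling, a pathway that sets sex differences in liver expression, was covered by 11 genes. In WT mice under alcohol 3 rose and 1 fell, against 10.8% of all tested genes higher and 10.8% lower. The values of 5 of the 11 were above 0, with a median log2 fold change of −0.06. *Cux2*, a transcription factor higher in female than in male mouse liver, rose (log2 fold change 4.71, edgeR adjusted p = 0.0320). *Bcl6*, a repressor higher in males, fell (−3.42, adjusted p = 0.00147), and *Cish* had 2.81 (adjusted p = 0.0551). The others that rose, named after their values were seen, were *Igfbp3* and *Socs2* (1.61 and 1.004, adjusted p = 0.0179 and 0.0488). In *Elf4*-/- mice 1 of the 11 fell, against 1.18% of all tested genes, namely *Bcl6* (−2.08, adjusted p = 0.0254). *Cux2* had 4.35 there (adjusted p = 0.0783). The 2 genes whose log2 CPM followed *Serpina1e* most closely, named after their values were seen, were *Mup20* (Pearson r = 0.995 over 8 libraries) and *C1s1* (0.993). The most negative correlations with *Serpina1e* lay as far from 0, at −0.995 and −0.993. *Mup20*, one of a large family of similar major urinary protein genes that can share reads, had 3856 and 4627 CPM on the control diet against 535 and 450 on alcohol in WT mice, and 3841 and 4532 against 182 and 867 in *Elf4*-/- mice, and as for *Serpina1e* the lowest library was *Elf4*-/--EtOH replicate 1.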
